A study of Sus scrofa with 12 samples.

Results

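MicroRNAs (miRNAs) of fetal pig longissimus muscle were compared between 35 and 55 days of gestation (dg) under maternal calorie restriction. A miRNA entered the comparison if it had at least 10 reads in the restricted-diet library of 35 dg (RE35) or of 55 dg (RE55). This left 390 of the 800 names in the table, 274 known miRNAs and 116 candidates predicted by the study. Large White sows were mated with the same boar and fed a normal diet (NE) or an energy-restricted diet (RE) from mating on, and the longissimus muscle was taken from their fetuses at 35, 55 and 90 dg. All fetuses were therefore of 1 breed and 1 sire, and the diets differed in energy content and in some of their ingredients. The methods say that 4 fetuses were chosen per group, 1 from each of 4 sows, but not whether their RNA was pooled, and each diet and stage has 1 small RNA library. RE35 and RE55 differ in age, and by the methods also in the sows they came from, with no replicate of either. Fold differences between them are therefore given with a 95% counting interval (exact conditional binomial), which covers the sampling of reads and not the variation between animals.

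A miRNA is a short RNA that guides a silencing complex to messenger RNAs, mostly through its seed, bases 2 to 8 from the 5′ end. miRNAs with the same seed can recognise the same target sites. In skeletal muscle a small set called myomiRs accumulates as myoblasts leave the cell cycle, fuse and build sarcomeres, and several of them are made from introns of myosin genes or from transcripts switched on by myogenic factors. Other miRNAs mark the neighbours of muscle in the embryo, such as cartilage, nerve and surface epithelium.

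The miRNA-specific stretches of the study's designed PCR primers are shown for miRNAs on which the results turn. Each begins at the 5′ end of the miRNA and stops short of its 3′ end, the seed is in capitals, and a leader of 14 bases that all 34 primers shared was removed. The first set holds muscle miRNAs, of which miR-1 and miR-206 share the seed GGAATGT.
miR-1: tGGAATGTaaagaagt
miR-206: tGGAATGTaaggaagtg
miR-133a-5p: aGCTGGTAaaatggaa
miR-133b: tTTGGTCCccttcaac
miR-499-5p: tTAAGACTtgcagtg

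The second set holds miR-378b-3p and a pair of candidates that carry the same seed, CTGGACT, and differ only after it.
miR-378b-3p: aCTGGACTtggagtc
NC_010448.3_15620: aCTGGACTtggagcc
NC_010449.4_16480: aCTGGACTtggaatca

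The third set holds miRNAs that were more than 2-fold lower in RE55. The stretches of miR-103 and miR-107 are identical, so that these stretches alone do not tell the pair apart, although the table counts them separately.
miR-103: aGCAGCATtgtacaggg
miR-107: aGCAGCATtgtacaggg
miR-221-5p: aCCTGGCAtacaatgta
miR-222: aGCTACATctggctact
miR-199a-3p: tACAGTAGtctgcaca
NC_010448.3_14733: tAATACTGcctggtaat

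The last set holds 4 miRNAs that were more than 2-fold higher in RE55, from the imprinted DLK1-DIO3 region (miR-376a-5p and miR-381), from the miR-424, miR-503, miR-542 and miR-450 cluster (miR-542-5p) and from endothelium (miR-126-3p). Of these, miR-542-5p rested on few reads, 17 in RE35 and 34 in RE55.
miR-376a-5p: gTAGATTCtccttctat
miR-381: aGCGAGGTtgccctttg
miR-542-5p: tCGGGGATcatcatg
miR-126-3p: tCGTACCGtgagtaat

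The miRNA reads numbered 2921934 in RE35 and 2019322 in RE55, within the range of all 6 libraries (1522142 to 3811231). Values are reads scaled to 1000000 miRNA reads of the library (RPM), mRNA values are counts scaled to 1000000 counts (CPM), and log2 ratios were taken after adding 0.5 reads. The tissue label was checked with muscle miRNAs, which made up 4.31% of the miRNA reads in RE35 and 13.0% in RE55, and with the mRNA libraries of the same groups, in which DES, the muscle intermediate filament protein desmin, had 41019 and 137781 counts. Cartilage mRNAs were also present in RE35. Type II collagen COL2A1 had 3451 counts there and 173 in RE55. The 5 cartilage marker genes chosen summed to 938 and 51.2 CPM, all 5 more than 2-fold lower in RE55. Kidney and simple epithelium mRNAs were low in both libraries, at 3.84 and 3.08 CPM over 4 genes, with CDH16 at 0 counts in RE35. In the library of the normal diet at 35 dg (NE35) the same 4 genes summed to 409.6 CPM, with 1604 counts of CDH16, a cadherin of the kidney, so that NE35 stands apart from RE35 in this respect. In bulk tissue, fewer cells of a type and less RNA per cell cannot be told apart.

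Of the 390 miRNAs, 74 were more than 2-fold higher in RE55 than in RE35 (19.0%) and 98 were more than 2-fold lower (25.1%). The remaining 218 lay within 2-fold. Of the miRNAs past 2-fold, 49 higher and 56 lower ones had a counting interval wholly past 2-fold, and for 12 the interval included no difference, each of these with fewer than 100 reads in both libraries. The miRNAs that were higher took up 9.78% of the miRNA reads in RE35 and 27.7% in RE55, and those that were lower 18.3% and 6.92%. Log2 ratios ran from −8.61 for miR-205 to 3.83 for miR-489, with a median of −0.31 and quartiles of −0.997 and 0.656. Since all values are shares of the miRNA reads, the scaling sets the zero point. TMM scaling added 0.17 and median-of-ratios scaling 0.23 to each log2 ratio, and the share of miRNAs past 2-fold that were higher was 43.0% with the main scaling, 55.3% with TMM and 56.6% with median-of-ratios scaling. The highest miRNA below the 2-fold line among the miRNAs described here was let-7g at 0.99, and the lowest above it was miR-450b-5p at 1.01. At the threshold on reads, 5 miRNAs had 10 reads in their larger library and 9 names that were left out had 9.

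**Figure D1:**
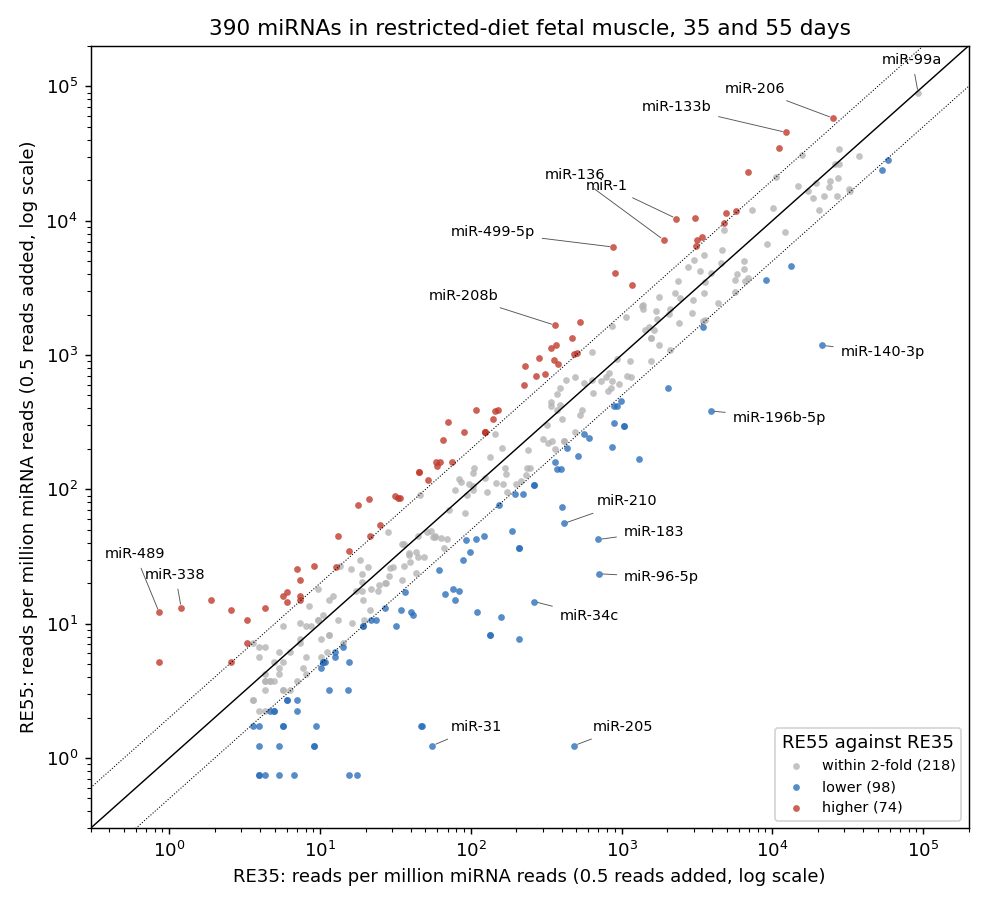
RPM in RE55 (vertical, log scale) against RE35 (horizontal, log scale), 0.5 reads added, 1 point for each of the 390 miRNAs. The solid line marks equal values and the dotted lines 2-fold. The 74 red points lie above and the 98 blue points below, with miR-205 farthest from the line.

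The muscle miRNAs of the list used here were all higher in RE55. All 10 measured names (miR-1, miR-133a-3p, miR-133a-5p, miR-133b, miR-206, miR-208b, miR-378, miR-486, miR-499-3p and miR-499-5p) were more than 2-fold higher, with a median log2 ratio of 2.03 beside −0.31 for all 390 miRNAs. Together they were 3.01-fold higher as a share of the miRNA reads. The list adds miR-378 and miR-486 to the skeletal muscle markers chosen for cell types. Because miR-486 was chosen after its value was seen, the count, the median and the summed share are partly set by that choice. The names other than miR-378 and miR-486 were also all more than 2-fold higher. It leaves out miR-378b-3p, which lay within 2-fold (log2 ratio 0.84). miR-499-5p and miR-208b, which lie in introns of slow myosin heavy chain genes and in mice favour the slow fiber program, led this group. miR-499-5p had 880 RPM in RE35 and 6364 in RE55, a log2 ratio of 2.85 (interval 2.79 to 2.92). miR-208b had 361 RPM in RE35 and 1665 in RE55, a log2 ratio of 2.20 (interval 2.10 to 2.31). miR-499-3p, the other arm of the miR-499 hairpin, had 205 reads in RE35 and 644 in RE55, so that both arms were past 2-fold. MYH7B, the myosin gene that holds miR-499, had 6239 and 7432 counts in the mRNA libraries of the same groups, a log2 ratio of 0.10 (interval 0.06 to 0.15), so that the host mRNA did not differ by the same size as the miRNA.

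miR-1 and miR-206, the pair with a shared seed, promote myoblast differentiation. miR-1 had 2302 RPM in RE35 and 10382 in RE55, a log2 ratio of 2.17 (interval 2.13 to 2.21). miR-206, which is nearly restricted to skeletal muscle, had 25217 RPM in RE35 and 58067 in RE55, a log2 ratio of 1.20 (interval 1.19 to 1.22), the smallest in the group. miR-206 was the second most abundant miRNA of RE55, after miR-99a. miR-133b, which neighbours miR-206 in the genome, had 12330 RPM in RE35 and 45418 in RE55. miR-378, from an intron of the metabolic coactivator gene PPARGC1B, had 897 and 4099 RPM, and its host mRNA had 43 and 79 counts. miR-486, chosen after its value was seen, lies in the ankyrin gene ANK1. Its log2 ratio was 1.71 (interval 1.61 to 1.82), beside 1.74 for the ANK1 mRNA, which had 1417 and 5263 counts. Of the 3 muscle marker mRNAs chosen, 2 were more than 2-fold higher in RE55, DES and the skeletal actin ACTA1 (log2 ratio 2.08). The most abundant of them, the myosin mRNA MYH3, lay within 2-fold. It had 388502 counts in RE35 and 592227 in RE55, a log2 ratio of 0.46.

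**Figure D2:**
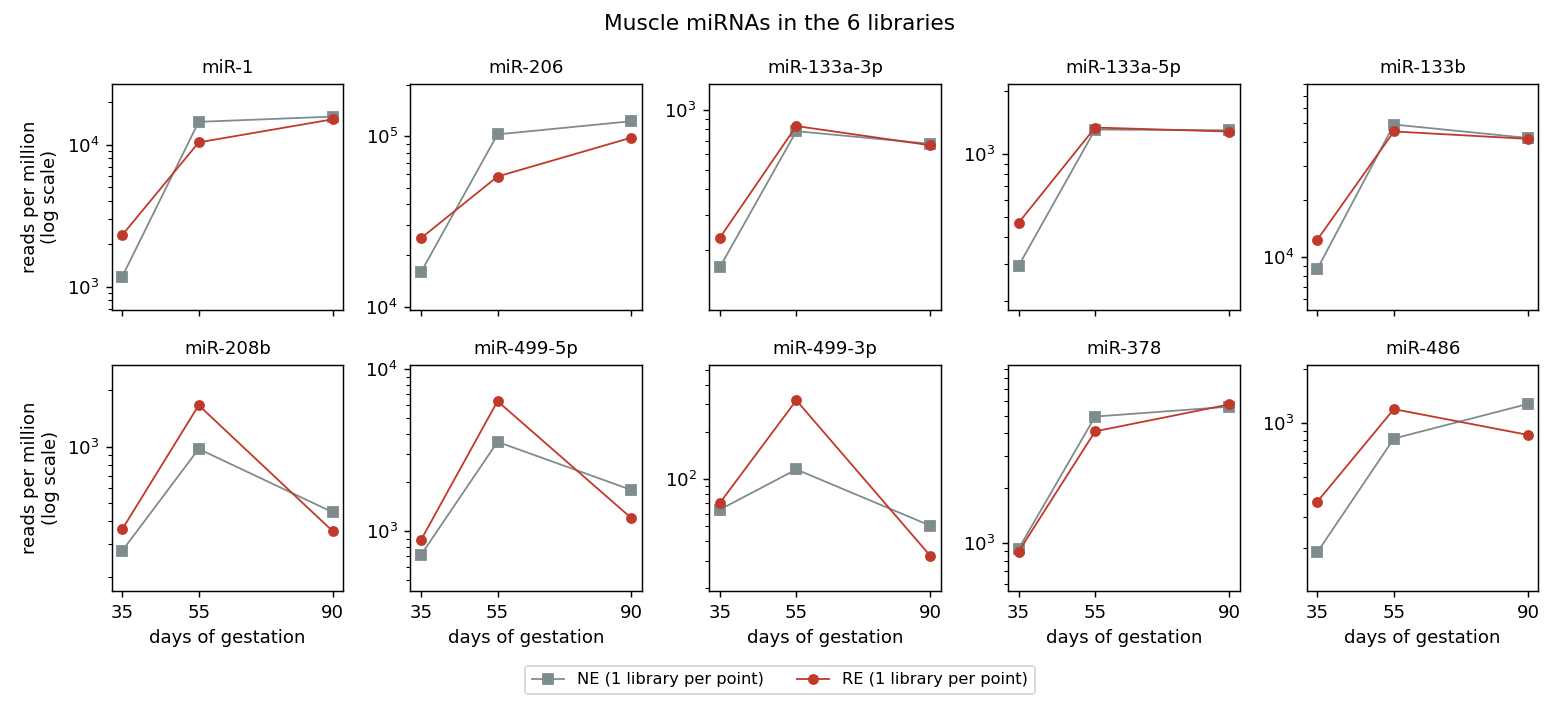
RPM (vertical, log scale) of the 10 muscle miRNAs at 35, 55 and 90 dg, red circles for RE and grey squares for NE, 1 library per point. Each is higher at 55 than at 35 dg under both diets. miR-208b, miR-499-5p and miR-499-3p are lower again at 90 dg.

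miR-338 and miR-489 had the largest ratios of all but rested on few reads. miR-338, which in other species is made from the neural kinase gene AATK, had 3 reads in RE35 and 26 in RE55, a log2 ratio of 3.45 (interval 1.94 to 6.02). miR-489, linked in mice to quiescence of muscle stem cells and chosen here after its value was seen, had 2 and 24 reads, a log2 ratio of 3.83 (interval 2.11 to 7.24). Among the miRNAs with a primer stretch, the 3 that carry the seed CTGGACT were split by the 2-fold line. miR-378b-3p had 420 reads in RE35 and 521 in RE55, a log2 ratio of 0.84. The candidate NC_010448.3_15620 had 17 and 29 reads (log2 ratio 1.29, interval 0.39 to 2.26). The candidate NC_010449.4_16480 had 26 and 54 reads (1.57, interval 0.89 to 2.32). All 3 intervals overlapped. miR-378 had no primer stretch to compare. Its log2 ratio was 2.19 (interval 2.13 to 2.26), above the interval of miR-378b-3p (0.66 to 1.03).

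The DLK1-DIO3 cluster is an imprinted region whose miRNAs are made from the maternal chromosome and are abundant in embryonic tissues. Of its 17 measured members 14 were more than 2-fold higher in RE55 and none lower, with a median log2 ratio of 1.57. The cluster took up 3.34% of the miRNA reads in RE35 and 9.13% in RE55. miR-136 had the highest ratio, with 5564 reads in RE35 and 14512 in RE55 (log2 ratio 1.92, interval 1.87 to 1.96). miR-369, its most abundant member in RE55, had 32342 and 70569 reads, and miR-127, which lies antisense to the imprinted gene RTL1, had 20264 and 46783. The lower end of the cluster was formed by miR-323 (0.68), miR-758 (0.72) and miR-487b (0.89), all on the same side of zero. miR-376a-5p and miR-376a-3p, arms of 1 hairpin, had log2 ratios of 1.17 and 1.39.

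The let-7 family, which restrains proliferation genes and marks the later phases of development in many animals, had 9 measured names. Of these 4 were more than 2-fold higher and none lower, and the median log2 ratio was 0.99. let-7i had the highest ratio, with 314 reads in RE35 and 789 in RE55 (log2 ratio 1.86, interval 1.67 to 2.06). let-7f had 14287 and 22854 reads (1.21), and let-7g, the most abundant of the family, 30945 and 42370. let-7e stood on the other side, with 3161 and 1401 reads and a log2 ratio of −0.64. In the RefSeq annotation let-7e lies beside miR-99b and miR-125a, and miR-99b was also lower, with 38689 and 9268 reads (log2 ratio −1.53).

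The miR-424, miR-503, miR-542 and miR-450 cluster had 7 of 10 names more than 2-fold higher and a median log2 ratio of 1.04. In mice its counterparts of miR-424 and miR-503 promote the exit of myoblasts from the cell cycle. The abundant members lay close to the 2-fold line. miR-450c-5p had 46166 reads in RE35 and 62154 in RE55 (log2 ratio 0.96, interval 0.94 to 0.98), and miR-542-3p had 16648 and 24002 (1.06, interval 1.03 to 1.09). The scarce miR-542-5p had 17 and 34 reads (1.51, interval 0.65 to 2.47). miR-503 had nearly the same share in both libraries (0.06). The arms of miR-424 lay on opposite sides of zero, miR-424-5p with 16404 and 7296 reads (−0.64, interval −0.68 to −0.60) and the scarce miR-424-3p with 62 and 91 reads (1.08, interval 0.61 to 1.58). Of 49 hairpins with both arms measured, 42 had both arms on the same side of zero, and the arms differed by a median of 0.25 on the log2 scale. The miR-424 pair had the widest gap, −1.72 from miR-424-3p to miR-424-5p.

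Among known miRNAs with at least 100 reads, miR-205, miR-31 and miR-96-5p had the lowest ratios. miR-205, of stratified epithelium, had 1417 reads in RE35 and 2 in RE55, a log2 ratio of −8.61 (interval −11.98 to −7.08). miR-31, also abundant in epithelium, had 162 and 2 reads (−5.49, interval −8.86 to −3.93). miR-205 was most of the epithelium and kidney list in RE35, which had 1613 reads over 5 members. miR-192 and miR-194b-5p, which mark kidney, gut and liver, had only 57 and 78 reads in RE35, and 21 and 40 in RE55. In the mRNA libraries the skin keratin KRT1, chosen after its value was seen, had 82 counts in RE35 and 2 in RE55, while TP63, a factor of basal epithelium, had 125 and 187. The part of epithelium in the miR-205 and miR-31 difference was not tested.

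miR-183, miR-96-5p and miR-182 are made from 1 cluster that is active in sensory cells. miR-96-5p had 2059 reads in RE35 and 47 in RE55 (log2 ratio −4.91, interval −5.37 to −4.50). miR-183 had 2048 and 85 reads (−4.05, interval −4.39 to −3.74), and miR-182, named with its cluster after its value was seen, had 1181 and 150 (−2.44). The neuronal miRNAs showed the same order of the libraries. All 5 names of that list were more than 2-fold lower in RE55, with a median log2 ratio of −2.50. miR-124a had 321 and 24 reads (−3.18), miR-9-1 had 611 and 74 (−2.50) and miR-137 had 242 and 35 (−2.24). miR-9-1 and miR-9-2 have identical reads in every library and count as 1 measurement. Of the neuronal marker mRNAs chosen, only SNAP25 was found by its symbol, with 7 counts in RE35 and 0 in RE55. Other neuronal mRNAs were not examined here.

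In the cartilage list the arms of miR-140, a miRNA required for normal cartilage growth, were much lower in RE55, and those of miR-455 were within 2-fold. miR-140-3p had 62685 reads in RE35 and 2380 in RE55 (log2 ratio −4.19, interval −4.25 to −4.13). miR-140-5p had 462 and 22 reads (−3.83). miR-455-5p had 2387 and 1091 reads (−0.60), close to the ratio of the collagen gene COL27A1 that holds it (−0.62, 561 and 405 counts). Under the normal diet the log2 ratios from 35 to 55 dg were −0.44 for miR-455-5p and 0.08 for COL27A1. The cartilage mRNAs named above moved in the same direction as miR-140, and their part in this difference was not tested.

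Connective tissue miRNAs were among the most abundant of RE35. miR-199a-3p and miR-199a-5p, made with miR-214 from a transcript of mesenchymal cells, had 170858 and 156571 reads in RE35, and 56808 and 48370 in RE55. Their log2 ratios were −1.06 and −1.16, and that of miR-214 was −1.53. The list took up 15.2% of the miRNA reads in RE35 and 7.26% in RE55, and 3 of its 5 members were past 2-fold, but only 1 with TMM scaling. miR-196a and miR-196b-5p, which lie in the HOX clusters and repress HOX genes, were lower by a larger factor. miR-196b-5p had 11406 reads in RE35 and 774 in RE55 (−3.35, interval −3.46 to −3.24), and miR-196a had 3822 and 342 (−2.95). Of the 6 measured HOX cluster names 3 were more than 2-fold lower, with a median log2 ratio of −1.54. The miR-10 names did not share this size. miR-10b, the most abundant of them, had 109743 and 60759 reads (−0.32), and miR-10a-5p had 18831 and 8896 (−0.55). miR-34c, which p53 induces, had 768 and 29 reads (−4.17). miR-210, the miRNA that responds most widely to low oxygen, had 1209 and 112 reads (−2.89, interval −3.19 to −2.62).

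All 3 names of miR-221 and miR-222, which restrain the cell cycle inhibitor p27 in human cells, were more than 2-fold lower, with a median of −1.57. miR-222 had 260 reads in RE35 and 60 in RE55, and miR-221-5p had 121 and 23. Of the miR-17-92 cluster and its paralogs, all 11 names had a ratio below zero but 1 was past 2-fold (miR-18b, −1.11), and none with TMM scaling. Their median was −0.51 beside −0.31 for all miRNAs. miR-17-5p had 10402 and 3712 reads (−0.95), and miR-19b had 50295 and 33641 (−0.05). miR-103 and miR-107, named for their shared primer stretch, had log2 ratios of −1.33 and −1.50. The mRNA of SMC4, the condensin gene that holds miR-15b, had a log2 ratio of −1.26, beside −1.34 for miR-15b. From 35 to 55 dg under the normal diet the signs were opposite, 1.18 for SMC4 and −1.65 for miR-15b. In the miR-15/16 family, which holds it, 3 of 8 names were past 2-fold upward and 1, miR-15b, downward, with a median of −0.29.

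Some groups did not part from the bulk of miRNAs. All 8 names of the miR-23/27/24 clusters lay within 2-fold (−0.68 to −0.28), as did all 8 of the miR-30 family (−0.26 to 0.66) and all 4 of the smooth muscle miRNAs miR-143 and miR-145 (0.31 to 0.45). The red blood cell miRNAs miR-144 and miR-451 had −0.59 and 0.40. The endothelial miR-126-3p was past 2-fold, with 9963 and 15331 reads (1.15), and its host mRNA EGFL7 had 226 and 447 counts (0.83). Under the normal diet the log2 ratios from 35 to 55 dg were −0.22 for miR-126-3p and −1.04 for EGFL7. Of the 10 most abundant miRNAs by the mean of RE35 and RE55, which held 39.4% of the reads in RE35 and 37.9% in RE55, miR-206 and miR-133b were past 2-fold upward, miR-199a-3p and miR-199a-5p downward, and the others, miR-99a, miR-10b, miR-30e-5p, miR-26a, miR-143-3p and miR-100, were within 2-fold.

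**Figure D3:**
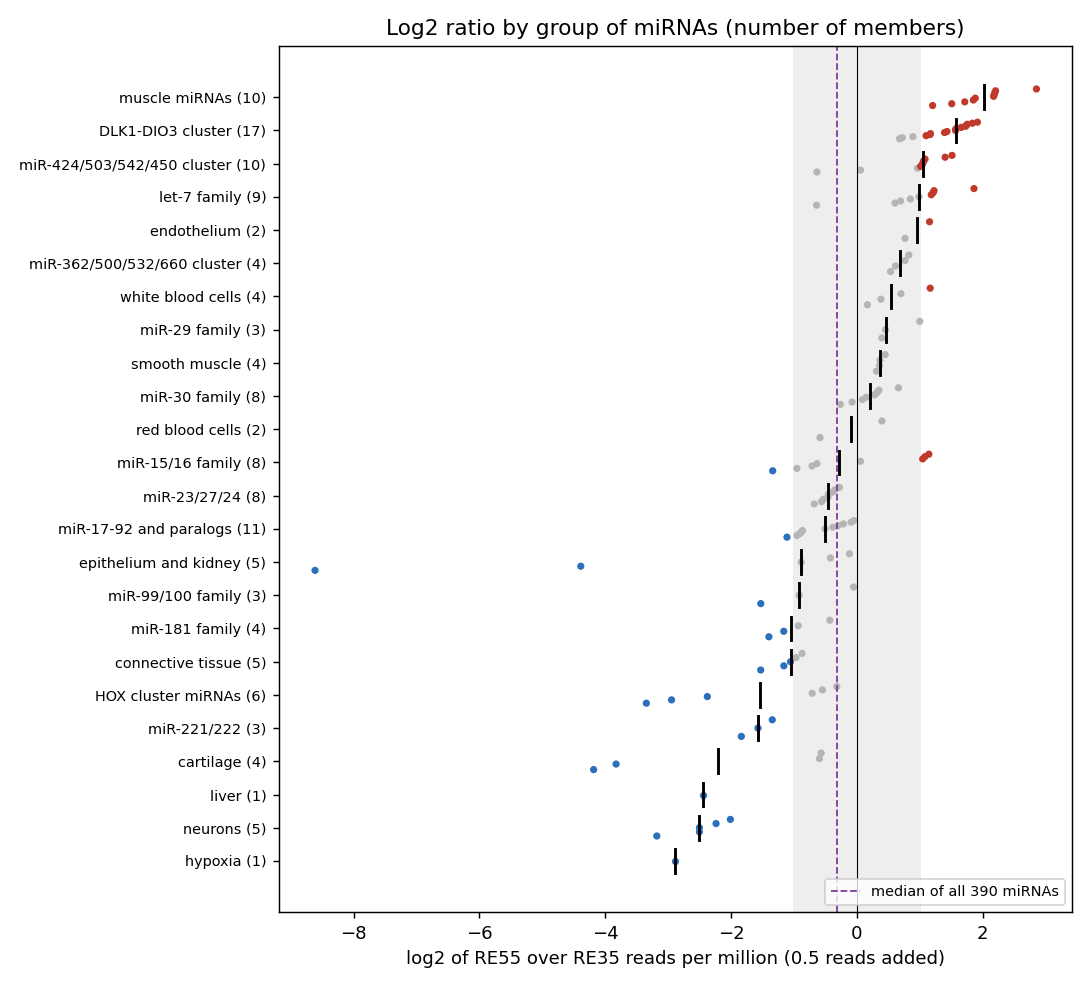
Log2 ratio of RE55 over RE35 (horizontal) for the members of each group of miRNAs, 1 point per miRNA, red above and blue below the grey band of 2-fold, with a black bar at the median of the group. All 10 muscle miRNAs, of which miR-486 was chosen after its value was seen, lie above the band and all 5 neuronal names below it.

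Of the 116 candidates 25 were more than 2-fold higher and 42 lower. They held 5.88% of the miRNA reads in RE35 and 6.15% in RE55. Among those with at least 100 reads, NC_010447.4_14168 (139 and 3 reads), NC_010448.3_14733 (605 and 15) and NC_010451.3_19280 (135 and 3) had the lowest ratios, between −4.78 and −4.74. NC_010451.3_19102 (61 and 171 reads, 2.01), NW_003539007.1_21542 (9010 and 21147, 1.76) and NW_003539007.1_21560 (1558 and 3560, 1.73) had the highest. NC_010454.3_1179 had 768 and 216 reads (−1.29).

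The position of the miRNA genes was a further property that the comparison did not use. Of the known miRNAs 243 could be placed on a miRNA gene of the RefSeq annotation (Sscrofa11.1) by name. These formed 27 groups of genes within 10 kb of each other, and in 22 groups all members lay on the same side of zero. miR-127, miR-432-5p and miR-136 lay within 0.18 of each other on the log2 scale, and miR-143 and miR-145 within 0.14. The let-7a and miR-100 pair was 1.61 apart, the widest gap within these groups outside the miR-183 cluster. miR-424 and miR-503 fell in none of the groups, not even in that of miR-450 and miR-542. The cluster named after all 4, which ran from −0.64 to 1.51, was therefore not counted whole.

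The same 390 miRNAs were read in the normal-diet libraries, which share no sample with RE35 and RE55. Of them 65 were more than 2-fold higher in NE55 than in NE35 (16.7%) and 149 lower (38.2%). With TMM scaling these counts were 106 and 83. Of the 74 miRNAs higher under restriction 53 were also higher under the normal diet, 71.6% of the restricted-diet calls and 81.5% of the normal-diet calls. Of the 98 that were lower 77 were also lower under the normal diet, 78.6% and 51.7% of the respective calls. With TMM scaling, chosen for this overlap after the data were seen, 74 were higher under both diets (89.2% of the restricted-diet calls and 69.8% of the normal-diet calls) and 48 were lower (71.6% and 57.8%). A further 70 miRNAs were past 2-fold downward under the normal diet and within 2-fold under restriction, but 33 with TMM scaling. The reverse case, past 2-fold upward under the normal diet alone, held for 12 miRNAs and for 30 with TMM scaling. Across the 390 miRNAs the log2 ratios of the diets had a Pearson's r of 0.805 and a Spearman's rho of 0.77, which describes these 4 libraries, and miRNAs are not independent replicates.

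Some miRNAs lay far from equal ratios. miR-192 had a log2 ratio of −0.89 under restriction and −8.09 under the normal diet, with 3442 reads in NE35 and 57 in RE35. NC_010448.3_14733 had −4.75 and −9.61, with 5230 and 605 reads in the respective 35 dg libraries. The kidney mRNAs of NE35 given above moved with these values, and their part was not tested. miR-206 had 1.20 under restriction and 2.69 under the normal diet, and miR-1 had 2.17 and 3.63. miR-10a-5p had −0.55 and −2.80, miR-30a-5p 0.66 and −1.04, and miR-126-3p 1.15 and −0.22. miR-499-5p had 2.85 and 2.32, and miR-499-3p 2.18 and 0.85. None of these differences between the diets could be tested, since each diet and stage has 1 library.

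**Figure D4:**
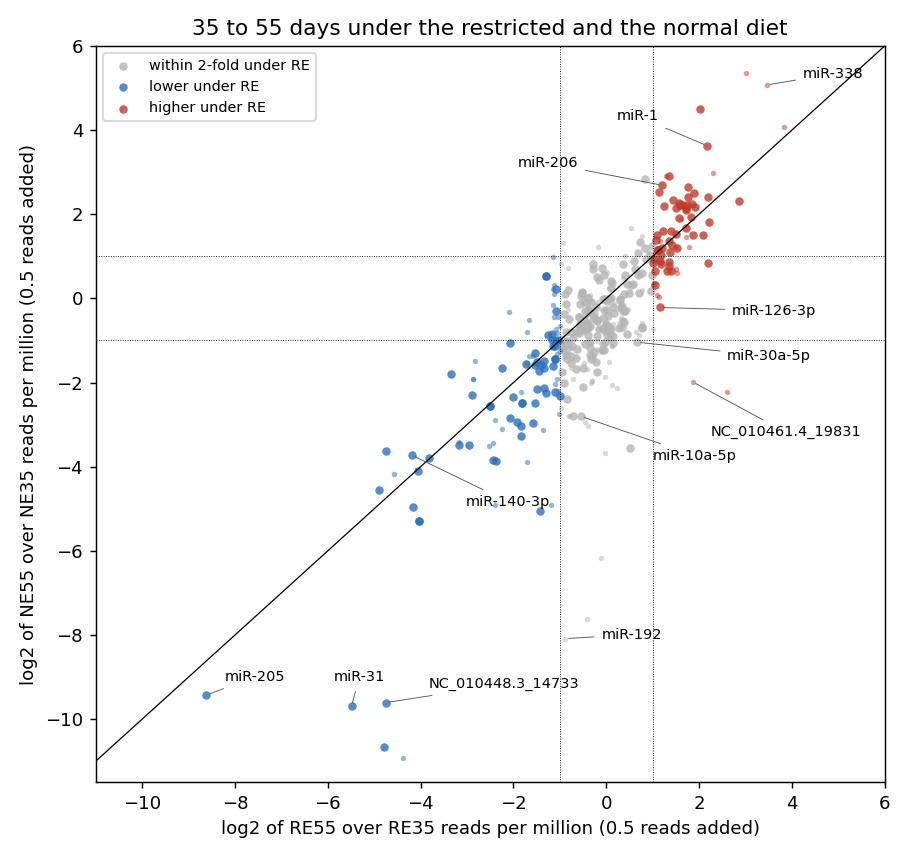
Log2 ratio of NE55 over NE35 (vertical) against RE55 over RE35 (horizontal) for the 390 miRNAs, large points for those with at least 100 reads in RE35 or RE55 and colors by the restricted-diet ratio. The solid line marks equal ratios and the dotted lines 2-fold. miR-192 and NC_010448.3_14733 lie well below the line.

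A test across libraries was possible only for stage over both diets. The quasi-likelihood test of edgeR, with diet as a covariate and 2 libraries per stage, covered 373 of the 390 miRNAs, and the other 17 were too scarce. It also covered 4 miRNAs outside the 390, none of which passed. At an adjusted p under 0.05, 61 of the 390 were higher at 55 dg and 43 lower (16.2% and 11.4% of the 377 tested in all). Of the 74 miRNAs past 2-fold upward in RE55 73 were tested and 52 passed, and of the 98 past 2-fold downward 88 were tested and 38 passed, all in the same direction. RE35 and RE55 are 2 of the 6 libraries in this test, so it is not independent of the comparison above. Of the muscle miRNAs 9 of 10 passed, all but miR-499-3p (adjusted p = 0.0735 from edgeR). This count includes miR-486, which was chosen after its value was seen. miR-133b was higher by 2.42 on the log2 scale (SE 0.24, adjusted p = 0.0179 from edgeR) and miR-208b by 2.25 (SE 0.32, adjusted p = 0.0205 from edgeR). Of the DLK1-DIO3 cluster 14 of 17 passed upward, led by miR-136 (2.27, SE 0.18, adjusted p = 0.0179 from edgeR), and of the let-7 family 8 of 9, with let-7f at 1.43 (SE 0.15, adjusted p = 0.0179 from edgeR). Downward, 4 of 5 connective tissue miRNAs passed, but miR-199a-5p, miR-199a-3p and miR-199b-3p did so under no alternative, with a lowest adjusted p of 0.0661, 0.0839 and 0.0953 from DESeq2 or edgeR, and miR-214 was left with DESeq2 (adjusted p = 0.00112) and some of the edgeR fits. The test was also passed downward by miR-34c (−4.41, SE 0.56, adjusted p = 0.0203 from edgeR), miR-196a (−3.03, SE 0.42, adjusted p = 0.0203 from edgeR) and miR-210 (−2.34, SE 0.41, adjusted p = 0.0282 from edgeR). None of the 5 neuronal names passed (miR-124a −3.25, SE 1.86, adjusted p = 0.243 from edgeR), nor did miR-96-5p (−4.44, SE 1.30, adjusted p = 0.0649 from edgeR). These calls turned on the libraries of 90 dg. In edgeR on only the 4 libraries of 35 and 55 dg all 5 neuronal names passed, with an adjusted p of 0.00352 for miR-124a, 0.00501 for miR-9-1 and 0.0180 for miR-137, and so did miR-96-5p (adjusted p = 0.00094). The same 6 names passed in edgeR without NE90 alone and without RE90 alone, and with DESeq2 miR-96-5p (adjusted p = 4.57e-05) and miR-137 (adjusted p = 0.0212) passed. With no filter on reads miR-96-5p passed in edgeR (adjusted p = 0.0232). The calls depended on each of the 4 libraries of 35 and 55 dg. Without NE35 no miRNA passed in either direction in edgeR, while 117 had an unadjusted p under 0.05, and without RE35 0 were higher and 2 lower. Without NE55 the counts were 7 and 3, and without RE55 7 and 5.

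The library of 90 dg under restriction (RE90) gives the next stage, in a comparison that shares RE55 with the one above. In RE90 29 of the 390 miRNAs were more than 2-fold higher than in RE55 (7.44%) and 61 lower (15.6%). miR-499-5p had 880, 6364 and 1202 RPM at 35, 55 and 90 dg, and miR-208b had 361, 1665 and 353. miR-1 had 2302, 10382 and 15102, so that the slow-fiber pair was highest at 55 dg and miR-1 at 90 dg. miR-216 and its neighbour miR-217, both known from pancreas, had the same shape at a low level, with 17.8, 76.3 and 13.6 and with 59.9, 148.6 and 23.9 RPM.

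The reverse shape was found for the miR-183 cluster and the neuronal miRNAs. miR-96-5p had 705, 23.3 and 730 RPM, and miR-183 had 701, 42.1 and 757. All 5 neuronal names were more than 2-fold higher in RE90 than in RE55, with miR-124a at 110, 11.9 and 182 RPM and miR-9-1 at 209, 36.6 and 458. The normal diet at 90 dg (NE90) gave other values, with 66.7 RPM of miR-96-5p, 54.2 of miR-183, 0.39 of miR-124a and 22.6 of miR-9-1. miR-205 and miR-140-3p stayed well under their level of 35 dg, at 6.03 and 2174 RPM in RE90.

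**Figure D5:**
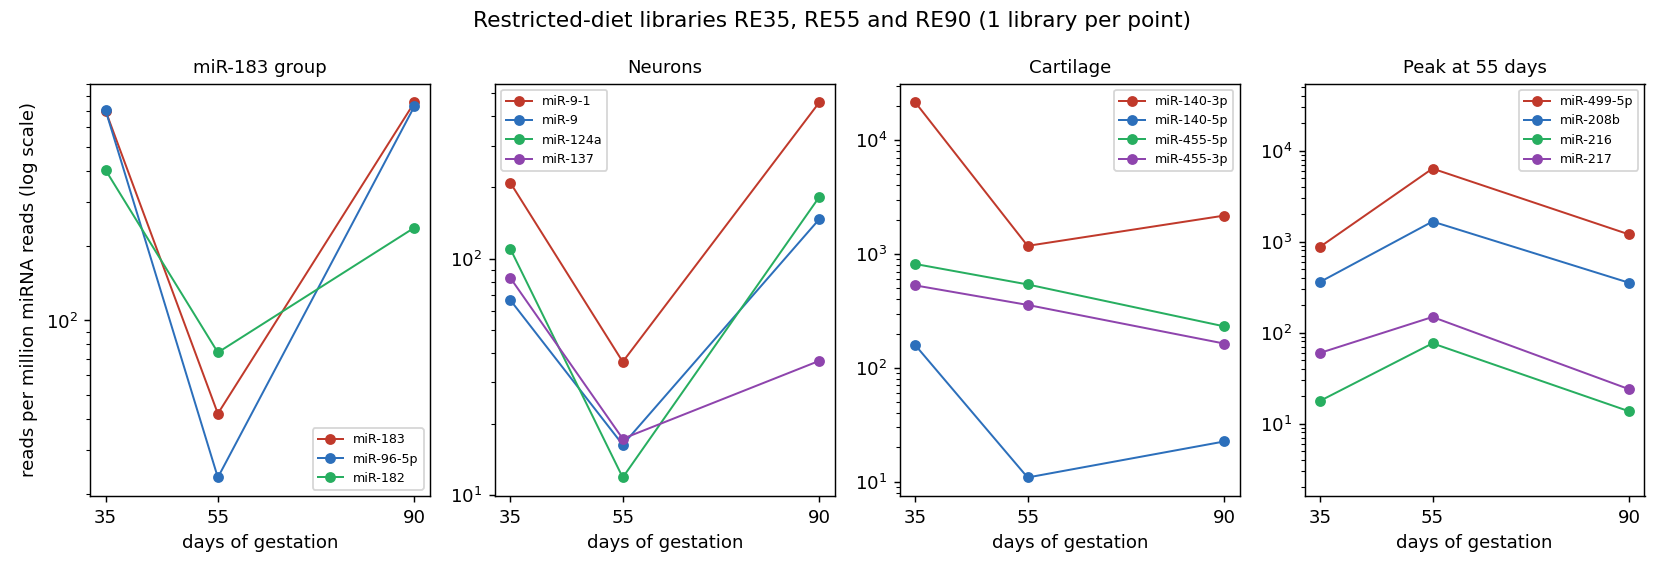
RPM (vertical, log scale) at 35, 55 and 90 dg in RE35, RE55 and RE90, 1 library per point, for the miR-183 cluster, the neuronal list, the cartilage list and 4 miRNAs with their highest value at 55 dg. miR-96-5p goes from 705 to 23.3 and back to 730.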

How the data were processed

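Small RNA was sequenced by the authors as 1 library per diet and stage. Per the study's methods only sequences of 16 to 26 nt were retained after adaptor removal and candidates were predicted with miRDeep2, and the labels name Bowtie. The genome build used for small RNA is not given in the sources used here. The deposited tables hold counts of reads per miRNA, not normalized, and TPM, which the authors scaled to all miRNA reads (each value lies within 2.52 of the RPM computed here). Columns named SE were read as RE. The deposited mRNA table holds counts per gene (TopHat2, Sscrofa10.2, reads placed once), used for markers and host genes, and the deposited RPKM columns were not tested. Of 19158 gene identifiers 11010 had a symbol.

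A miRNA was called past 2-fold on reads scaled to all miRNA reads with 0.5 reads added. Counting intervals are exact conditional binomial at 95%. No p-value was computed between 2 single libraries, except Fisher's exact test on reads (p under 0.01) as an alternative, which compares the libraries and not the stages. Stage over both diets was tested with edgeR 4.0.16 in R 4.3.3 (TMM, glmQLFit, glmQLFTest, diet as covariate, at least 10 reads in at least 2 libraries, Benjamini-Hochberg), with DESeq2 1.42.0 as an alternative. The fold call and the test of stage were also run on simulated data. For the fold call the simulated data held counting error only, so they do not bear on variation between animals. Python 3.11.15, numpy 2.4.6, pandas 2.3.3, scipy 1.17.1 and matplotlib were used. The p-values measure only the spread between these libraries. Genes named are known miRNAs with at least 100 reads in RE35 or RE55 that were the 10 highest, the 10 lowest or the 10 most abundant. To these were added up to 5 per list with their other arms, the 3 highest and 3 lowest candidates, and host genes. miRNAs on which the study's text dwells were named as well. Some others are marked as chosen after their values were seen. The rest carry no such mark and were named with their values known. They include let-7e, miR-323, miR-487b, miR-18b, miR-192, miR-194b-5p and miR-217. The members and lists were chosen with earlier results of these data known. miR-9-1 and other names with identical reads (23 names in 11 sets) cannot be counted apart. Primer stretches came from the study's primer list.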

Additional observations from a re-analysis of the deposited data

Results flagged for a closer look

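A pair of candidate miRNAs was past 2-fold in opposite directions under the diets, and the difference was not tested. NC_010461.4_19831 had 20 reads in RE35 and 51 in RE55, a log2 ratio of 1.86, against 30 in NE35 and 15 in NE55, a log2 ratio of −1.99. NC_010446.4_12102 had 2 and 10 reads, a log2 ratio of 2.60, against 3 and 1, a log2 ratio of −2.23. Both have few reads, and no other of the 390 miRNAs did so. With TMM scaling 4 miRNAs did. Groups of 1 library allowed no search for samples far from their group.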

How the results depend on the processing

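Of the miRNAs past 2-fold in RE55 against RE35 (74 higher, 98 lower), a minimum of 100 reads left 59 lower, no filter on reads gave 127 and 244, a counting interval wholly past 2-fold left 49 and 56, and known miRNAs alone 49 and 56. For the normal diet (65 and 149), TMM gave 106 and 83, median-of-ratios scaling 101 and 90, a minimum of 100 reads 91 lower, no filter 367 lower, and known miRNAs alone 43 and 97. The median log2 ratio of all miRNAs, −0.311, was −0.142 with TMM, −0.08 with median-of-ratios scaling and −0.21 with a pseudocount of 5 reads, and that of the muscle list, 2.027, was 2.196 and 2.258 with the 2 scalings. These medians were called moved past a shift of 0.1. Leaving out each of the 6 libraries gave 0 to 75 higher and 0 to 62 lower miRNAs in the test of stage (61 and 43). All other alternatives kept each count within 1.5 times. No paired analysis was possible because the labels give no replicate numbers. Depth limits miRNAs of few reads: 129 of the 390 had fewer than 100 reads in both libraries, among them 60 past 2-fold.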
